A study of Mus musculus with 12 samples.

Results

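The comparison described here sets Ly6Chi monocyte-derived dendritic cells (Ly6Chi moDC, named inf.moDCs in the labels) against CD14lo conventional dendritic cells (CD14lo cDC), both CD11bhi cells sorted from mouse lung. It was chosen by the sort labels, and rests on 6 of the 12 arrays of the series, 3 for each population. The other 6 arrays hold CD14hi monocyte-derived dendritic cells (CD14hi moDC) and CD103+ conventional dendritic cells (CD103+ cDC), which are given beside the pair where they help to place a level. All 4 populations came from male C57BL/6J mice aged 8 to 12 weeks that had received 100 ng lipopolysaccharide and 100 µg ovalbumin in 50 µl into the airway. Lungs were taken 16 hours later, so no population is from untreated lung. Each replicate pooled 20 mice, the stated sort purity was above 93%, and 50 ng of total RNA was amplified for each array. The labels do not say whether a replicate number marks a shared pool of mice across the sorts. The p-values measure only the spread between these pooled arrays.

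Dendritic cells carry antigen from tissue to lymph nodes and present it to T cells. Conventional dendritic cells arise from a bone marrow precursor that depends on the receptor FLT3, and those of the lung fall into a CD103+ and a CD11b+ kind. Blood monocytes with high Ly6C enter inflamed tissue through the chemokine receptor CCR2 and can take on features of dendritic cells or macrophages there. Lipopolysaccharide is a bacterial cell wall component sensed through CD14 and TLR4. Once activated, dendritic cells turn on CCR7, which guides them to the lymph node, together with costimulatory molecules.

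Signals are given in arbitrary units, in the order of replicates 1, 2 and 3, or as mean ± SD of 3 arrays. They are not compared between genes, since probe sets differ in brightness. A difference is the log2 of signals raised by a pseudocount of 50.0003, Ly6Chi moDC minus CD14lo cDC, with its SE, so that the differences of dim genes are understated. A gene was called when its Benjamini-Hochberg adjusted p over all genes, from limma, was under 0.05, and every gene written of here as higher, lower, risen or fallen passed it. Because RNA of whole populations was measured, fewer cells expressing a gene and less RNA of it per cell cannot be told apart.

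Array medians ran from 72.4 to 87.7 in Ly6Chi moDC and from 88.3 to 95.2 in CD14lo cDC, which do not overlap. These medians are of all probe sets. With every array centred instead at the median log2 value of its tested genes, 1267 genes were higher and 1496 lower, against 1228 and 1530 as deposited. Quantile normalization, which gives all arrays the same distribution of signals, gave 1313 higher and 1454 lower. The 3′ to 5′ signal ratio of Gapdh, a measure of RNA integrity, was 1.66 ± 0.22 in Ly6Chi moDC and 1.85 ± 0.39 in CD14lo cDC. Across genes, arrays of the same population correlated at 0.973 to 0.983 and arrays of the pair at 0.900 to 0.916.

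Markers of other cell types were examined before the gene groups. Their counts are to be read against the 11.2% of all genes tested that were higher in Ly6Chi moDC and the 14.0% lower. Of 6 tested neutrophil markers, 4 were higher in Ly6Chi moDC, and the summed signal of 10 markers was 4233 to 4599 in Ly6Chi moDC, against 1045 to 1431 in CD14lo cDC. S100a8, an alarmin gene of neutrophils and also of classical monocytes, had 1218, 1537 and 1014 in Ly6Chi moDC, against 226, 150.1 and 402 in CD14lo cDC (2.14 ± 0.47, adjusted p = 0.00211). The others were S100a9, Csf3r, the G-CSF receptor gene, and Mmp8, for a neutrophil collagenase, which averaged 160.2 in Ly6Chi moDC against 11.1 in CD14lo cDC. Mmp8 exceeded the array median only on Ly6Chi moDC arrays, so it was tested only through the population where it is high. Further neutrophil genes were too dim to be tested, so the count leaves them out. Ngp and Camp, which encode neutrophil granule proteins, averaged 5.30 and 62.9 in Ly6Chi moDC, against 2.57 and 29.8 in CD14lo cDC. Cxcr2 averaged 45.3 in Ly6Chi moDC against 35.9 in CD14lo cDC. Ly6g was not analysed here. Of 8 fibroblast markers tested, 6 were higher in Ly6Chi moDC, but 2 without CD14lo cDC replicate 1, and likewise 2 without Ly6Chi moDC replicate 3. The sum of 10 fibroblast markers was 3619 to 5410 in Ly6Chi moDC, against 1968 to 2224 in CD14lo cDC, to which Mgp, for matrix Gla protein, added 2939 ± 689 in Ly6Chi moDC against 1135 ± 285 in CD14lo cDC.

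Natural killer (NK) cell markers ran the other way: 4 of 5 tested, Klrd1, Klrk1, Klre1 and Gzma, were lower in Ly6Chi moDC, with sums of 2582 to 2834 there and 10690 to 13312 in CD14lo cDC. The killer lectin receptor gene Klrd1 had 509.9, 485 and 449 in Ly6Chi moDC, against 6003, 6493 and 6758 in CD14lo cDC. The defining NK genes Ncr1, Nkg7, Eomes and Gzmb averaged at most 20.7 in Ly6Chi moDC and at most 22.2 in CD14lo cDC. Among lung epithelium markers, the junction genes Epcam and Cdh1 and the mucin gene Muc1 were lower in Ly6Chi moDC, and the surfactant gene Sftpc was 195 ± 58.9 in Ly6Chi moDC against 151 ± 69.5 in CD14lo cDC without a call. The sums of 11 epithelium markers were 2998 to 4147 in Ly6Chi moDC and 4612 to 7550 in CD14lo cDC. To these Cdh1 added 998 ± 187 in Ly6Chi moDC and 2470 ± 402 in CD14lo cDC. Scgb1a1, which was not called, added 1964 ± 500 in Ly6Chi moDC and 2659 ± 1263 in CD14lo cDC. The T cell genes Cd3d, Cd3e and Cd3g averaged at most 50.8 in Ly6Chi moDC and 49.4 in CD14lo cDC. Among the other markers of T cells, B cells, plasmacytoid cells, mast cells and endothelium, Bst2, Hdc and Cdh5 were higher and Cd8a and Pacsin1 lower, and the rest of those tested were not called. The Cdh5 call was lost without CD14lo cDC replicate 1 (adjusted p = 0.126) or 2, and without Ly6Chi moDC replicate 1 or 3. Within the pair, Cdh5 exceeded the array median only on Ly6Chi moDC arrays, the population where it is high. The Pacsin1 call was lost without CD14lo cDC replicate 2 or Ly6Chi moDC replicate 1, and Pacsin1 lay below the array median on every array of the pair.

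Of 10 tested alveolar macrophage markers, Chil3 and Mrc1 were higher in Ly6Chi moDC and Fabp4, Plet1 and Siglecf lower. Some of the others set CD14lo cDC replicate 1 apart from the other CD14lo arrays. Car4, a carbonic anhydrase gene of these cells, had 404, 305 and 241 in Ly6Chi moDC, against 2315, 235 and 257 in CD14lo cDC, and the scavenger receptor gene Marco had 95.3, 102 and 96.3 in Ly6Chi moDC against 685, 75.3 and 177 in CD14lo cDC. Replicate 1 was also the highest in the other 2 populations. Car4 had 1285, 192 and 205 in CD14hi moDC and 1013, 685 and 215 in CD103+ cDC. Marco had 844, 509 and 647 in CD14hi moDC and 669, 224 and 118 in CD103+ cDC. Summed over 11 markers, the Ly6Chi moDC arrays had 11108 to 13953 and the CD14lo cDC arrays 6512 to 17083, with CD14lo cDC replicate 1 highest. Without that replicate 1014 genes were higher and 1282 lower, of 1228 and 1530 with all arrays. The calls of Mrc1 and Siglecf were lost without it (adjusted p = 0.0631 and 0.187). These losses are not particular to that array. The list also had 1 member higher in place of 2 without CD14lo cDC replicate 3, and without Ly6Chi moDC replicate 1 or 3. The neutrophil, fibroblast, NK cell and epithelium sums do not overlap between the populations, and neither do 3 others. Plasmacytoid cell sums were 8414 to 9341 in Ly6Chi moDC against 5444 to 7711 in CD14lo cDC. Sums of mast cell, basophil and eosinophil markers were 381 to 600 in Ly6Chi moDC against 178 to 328 in CD14lo cDC. T cell sums were 169 to 253 in Ly6Chi moDC against 388 to 630 in CD14lo cDC. Most of each of these 3 gaps came from 1 gene. Bst2 averaged 6064 in Ly6Chi moDC against 3585 in CD14lo cDC, Hdc 335 against 74.8, and Cd8a 49.2 against 272. All these sums move with the differences described below, and their part in those results was not tested.

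**Figure D1:**
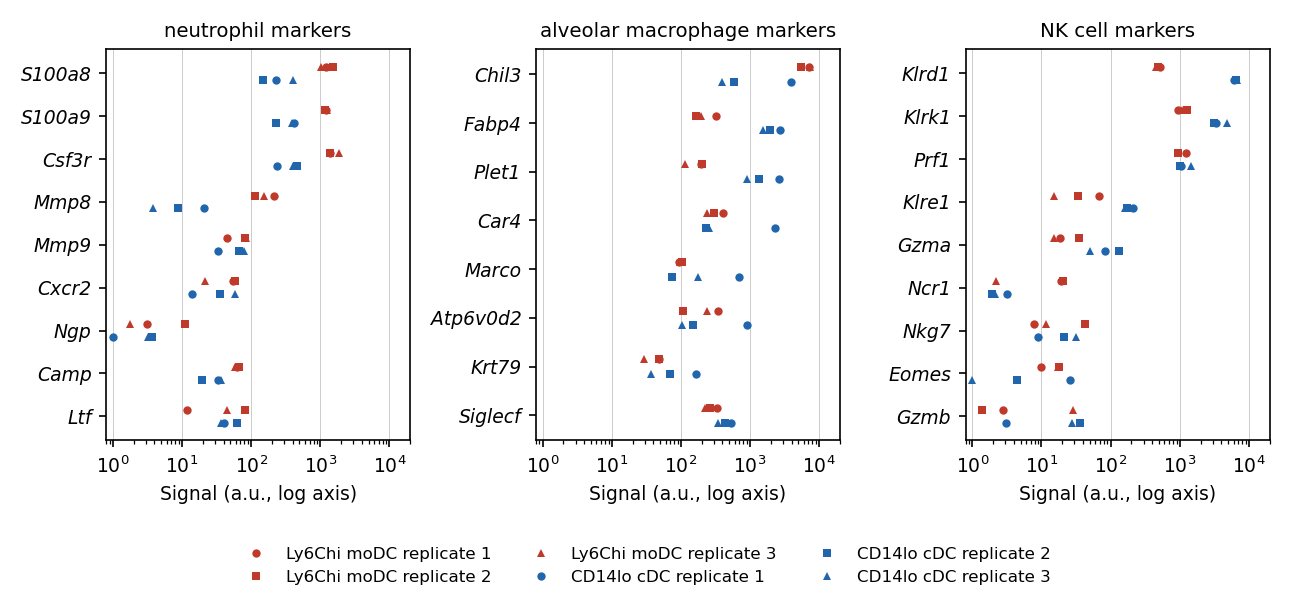
Signals of neutrophil, alveolar macrophage and NK cell markers on each array of Ly6Chi moDC (red) and CD14lo cDC (blue), in arbitrary units on a log axis, with values under 1 drawn at 1; the symbol gives the replicate. S100a8, S100a9 and Csf3r are higher in red while Ngp, Camp and Ltf are dim in both; the blue circle, CD14lo cDC replicate 1, is highest for Car4, Marco and Atp6v0d2.

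Of 10929 genes tested, 1228 (11.2%) were higher and 1530 (14.0%) lower in Ly6Chi moDC, together 25.2%. At least 2-fold, 496 (4.54%) were higher and 699 (6.4%) lower, and 131 and 184 differed at least 4-fold. The median difference over all genes was -0.01. The arrays of the populations did not overlap for 2700 of the 2758 called genes, and for 39.5% of all genes tested.

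**Figure D2:**
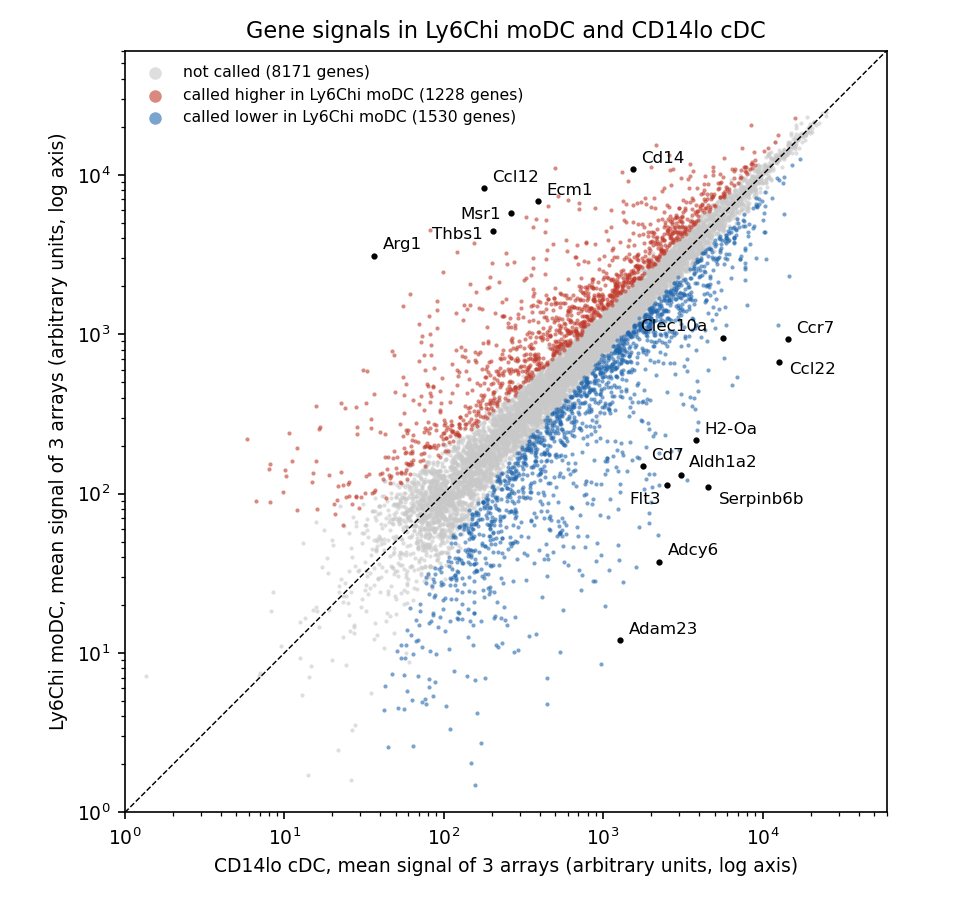
Mean signal of each tested gene over 3 arrays in Ly6Chi moDC (vertical) and CD14lo cDC (horizontal), in arbitrary units on log axes, with means under 1 drawn at 1; the dashed line marks equal signal. The 1228 genes called higher lie above it and the 1530 called lower below it, with Arg1 and Ccl12 far above and Adam23 and Adcy6 far below.

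With each gene read from its brightest kept probe set, the largest rise was in Arg1, which encodes arginase 1, the enzyme that splits arginine into ornithine and urea. Arg1 had 2981, 3459.6 and 2883 in Ly6Chi moDC, against 35.7, 8.53 and 66.0 in CD14lo cDC, and every Ly6Chi array lay above every CD14lo array (5.24 ± 0.29, adjusted p = 2.6e-10). The next places were taken by neighbours in function: the chemokine genes Ccl12, Ccl7 and Ccl2, whose products draw monocytes through CCR2. Ccl12 had 8102, 9159.8 and 7484 in Ly6Chi moDC, against 260.5, 99.0 and 179 in CD14lo cDC (5.23 ± 0.22). Ccl7 had 3932, 6043 and 3496 in Ly6Chi moDC against 106, 57.9 and 80.2 in CD14lo cDC (5.09 ± 0.29), and Ccl2 had 11113, 14147 and 8046 in Ly6Chi moDC against 627, 309 and 559 in CD14lo cDC (4.36 ± 0.29). The arrays of the pair did not overlap for any of the 3 genes, which are related in sequence, and cross-hybridization between their probe sets was not tested.

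Also among the 15 largest rises, Thbs1, for the adhesive glycoprotein thrombospondin 1, had 5401, 3241 and 4688 in Ly6Chi moDC, against 216, 67.6 and 327 in CD14lo cDC (4.27 ± 0.45, adjusted p = 7e-07). Rnase4, for a secreted ribonuclease, rose by 4.30, Olfml3, for a secreted olfactomedin-like protein, by 4.01, and complement factor B, Cfb, by 3.68 on the log2 scale, and Ecm1, for a matrix protein, averaged 6818 ± 440.5 in Ly6Chi moDC against 389.5 ± 109.5 in CD14lo cDC. Inhba, for the subunit of activin A, a ligand of the transforming growth factor family, had 4217, 1324 and 1809.9 in Ly6Chi moDC against 161, 36.1 and 98.4 in CD14lo cDC, so that replicate 1 stood above the other Ly6Chi arrays and all of them above CD14lo cDC. Acod1, the enzyme that makes itaconate in activated macrophages, had 5197, 2999 and 2988 in Ly6Chi moDC, against 232, 99.0 and 137 in CD14lo cDC (4.20 ± 0.35). Msr1, scavenger receptor A, had 6122, 5649 and 5579.6 in Ly6Chi moDC against 317, 132 and 339 in CD14lo cDC (4.30 ± 0.31), with little spread in Ly6Chi moDC. The transcription factor gene Maf, the C-type lectin gene Clec4d and Lhfpl2, for a membrane protein, complete the 15, with rises of 3.89, 3.88 and 3.87.

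On the same reading, the largest fall was in Serpinb6b, an intracellular protease inhibitor gene, which had 81.7, 54.1 and 195 in Ly6Chi moDC, against 5072, 4362 and 4275 in CD14lo cDC (-4.94 ± 0.22, adjusted p = 3.3e-11). Adcy6, an adenylyl cyclase that makes cyclic AMP, had 46.7, 29.6 and 36.2 in Ly6Chi moDC against 2970.3, 1899 and 1893 in CD14lo cDC (-4.69 ± 0.21). Adcy6 lay below the array median on all 3 Ly6Chi arrays.
Aldh1a2, which makes retinoic acid from retinaldehyde, had 142, 127 and 122 in Ly6Chi moDC, against 3708, 2829 and 2673 in CD14lo cDC (-4.10 ± 0.15, adjusted p = 4e-12). Adam23, for a cell surface protein of the disintegrin family, had 10.8, 9.23 and 16.1 in Ly6Chi moDC against 1541, 981 and 1327 in CD14lo cDC (-4.40 ± 0.19). The other falls were in Ctnnd2, for a catenin (-4.42), Sema7a, a membrane-bound semaphorin (-4.41), the adaptor gene Stap2 (-4.24), the protease inhibitor gene Spint2 (-4.09), Mmp23, a matrix metalloproteinase (-4.07), clusterin, Clu (-4.05), the lectin gene Cd209c (-4.01) and the growth factor receptor gene Fgfr1 (-3.95). Ccl22, Ccr7 and Flt3, also among the 15, are described with their groups.

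**Figure D3:**
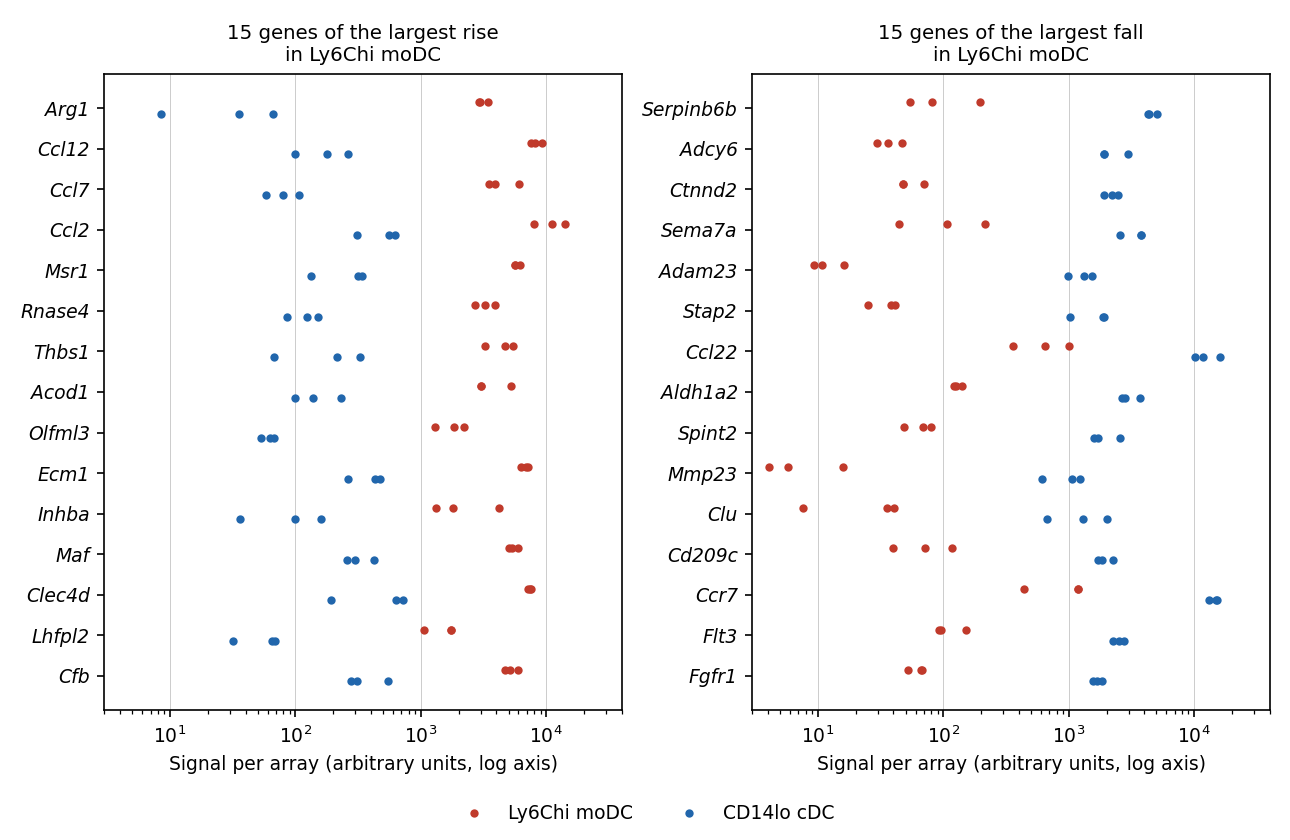
Signal on each array of Ly6Chi moDC (red) and CD14lo cDC (blue) for the 15 genes of the largest rise (left) and the 15 of the largest fall (right), in arbitrary units on a log axis. Only called genes whose red and blue points do not overlap could enter, and Arg1 and Serpinb6b head the panels.

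The labels were set against identity genes. Cd14, a sort gene of the CD14lo gate, had 10965, 9073 and 12468 in Ly6Chi moDC, against 1714, 1257 and 1639 in CD14lo cDC, a description of the sort. Itgam, which encodes CD11b, was 2188 ± 177 in Ly6Chi moDC against 1115 ± 222 in CD14lo cDC, although both gates were CD11bhi. The Ly6c probe set is annotated to 2 genes and was not analysed here. Of the conventional core genes, Flt3 had 153, 95.1 and 91.5 in Ly6Chi moDC, against 2262, 2752 and 2525 in CD14lo cDC (-3.99 ± 0.17, adjusted p = 2.2e-11). Zbtb46, a transcription factor gene characteristic of conventional dendritic cells, had 257, 178 and 131 in Ly6Chi moDC against 3536, 2467 and 2999 in CD14lo cDC (-3.70 ± 0.20), and Dpp4, for the surface peptidase CD26, had 292, 334 and 392 in Ly6Chi moDC against 3780.2, 3921 and 3680.3 in CD14lo cDC (-3.31 ± 0.18). None of the 3 overlapped, and the Ly6Chi arrays were the low ones each time. On the monocyte side, C5ar1, for the receptor of complement fragment C5a, had 13587, 14039 and 12257 in Ly6Chi moDC, against 3126, 1676 and 3024 in CD14lo cDC (2.38 ± 0.32). Fcgr1, for the high affinity IgG receptor CD64, had 8029, 7384 and 9326 in Ly6Chi moDC against 2549, 2162 and 2542 in CD14lo cDC (1.75 ± 0.20). Monocyte genes were not absent from CD14lo cDC: Ccr2 had 8786, 9398 and 8509 in Ly6Chi moDC and 5025, 4901 and 5855 in CD14lo cDC, a difference of 0.76 ± 0.14, and the CSF1 receptor gene Csf1r was 16122 ± 1239 in Ly6Chi moDC against 12052 ± 631 in CD14lo cDC, a difference of 0.42 and a call lost without CD14lo cDC replicate 1 (adjusted p = 0.0535). The size depends on the probe set: the other kept probe sets gave 1.04 and 1.37 for Csf1r, up to 1.85 for Ccr2 and 4.37 for C5ar1.

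Of 627 distinct genes on the lists, 502 were tested, the others being too dim for the filter or not analysed here, so a list's counts cover its tested members. Gene lists are given by their calls and median, to be read against the 11.2% of all genes called higher, the 14.0% called lower and the median of -0.01. In the core list of monocytes and macrophages, 19 of 22 tested members were higher and 1 lower, with a median of 1.54. The list holds Cd14, which the sort used. Besides those above, Ms4a7, a membrane protein gene of macrophages, was 4737 ± 662 in Ly6Chi moDC against 361 ± 165 in CD14lo cDC, the apoptotic cell receptor gene Mertk 889 ± 201 in Ly6Chi moDC against 71.9 ± 44.8 in CD14lo cDC, and Vcan, for the matrix proteoglycan versican, 1417 ± 189.6 in Ly6Chi moDC against 90.3 ± 39.2 in CD14lo cDC. Cd300a, an inhibitory receptor gene, was the member that was lower (-0.96 ± 0.18).
Of 26 genes of the conventional dendritic cell core, 22 were lower and 1 higher, with a median of -1.81. The exception was Anpep, for aminopeptidase N (CD13), at 5062 ± 1571 in Ly6Chi moDC against 2456 ± 391 in CD14lo cDC.

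The CD11b+ conventional dendritic cell list had 11 of 16 lower and 1 higher, with a median of -2.11. The higher member was Itgam itself. Cd7, a surface protein gene better known from lymphocytes, had 204, 159 and 82.3 in Ly6Chi moDC, against 1299, 2422 and 1637 in CD14lo cDC (-3.22 ± 0.27, adjusted p = 4.7e-08). Clec10a, a galactose-binding lectin gene, had 1097, 885 and 872 in Ly6Chi moDC against 4560.1, 6426 and 6073 in CD14lo cDC (-2.51 ± 0.28). Both were named for this pair with earlier results in view, so they are a description. Cd209a, for a lectin of the DC-SIGN family, had 650.0, 609 and 351 in Ly6Chi moDC, against 7162, 6704 and 6756 in CD14lo cDC (-3.60 ± 0.39), and Ffar2, for a receptor of short chain fatty acids, had 167, 99.3 and 77.0 in Ly6Chi moDC against 1194, 1359 and 1249 in CD14lo cDC. Every CD14lo array was above every Ly6Chi array for these 4 genes. The CD103+ cDC list had 10 of 15 lower and 1 higher, with a median of -0.86; here Ly75, the endocytic receptor DEC-205, fell by 2.90 and Itgae, the CD103 gene, by 2.72, while Rab7b, a small GTPase of endosomes, rose by 2.26.

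Transcription factors of the lineages were split, with 8 of 29 higher and 10 lower and a median of -0.02. Maf had 5064, 5919 and 5343 in Ly6Chi moDC, against 298, 258 and 423 in CD14lo cDC. Cebpb, which acts in monocyte maturation, had 11827, 11533 and 11799 in Ly6Chi moDC against 2997, 3787 and 3701 in CD14lo cDC (1.74 ± 0.17), and Nr1h3, for the sterol-sensing receptor LXR alpha, had 1964, 1197 and 1796 in Ly6Chi moDC against 426, 464 and 469 in CD14lo cDC (1.73 ± 0.20). On the low side beside Zbtb46 were Irf4, which CD11b+ dendritic cells need, with 506, 519 and 282 in Ly6Chi moDC against 2939.7, 2169 and 2464 in CD14lo cDC (-2.44 ± 0.23), and Bcl11a, a factor gene of lymphoid and dendritic progenitors, with 125, 279.5 and 96.2 in Ly6Chi moDC against 1814, 1512 and 1746 in CD14lo cDC (-3.09 ± 0.30). The myeloid factor genes Spi1 and Irf8 were not called, at 5442 ± 399 and 2716 ± 326 in Ly6Chi moDC and 5605 ± 664 and 2367 ± 391 in CD14lo cDC.

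**Figure D4:**
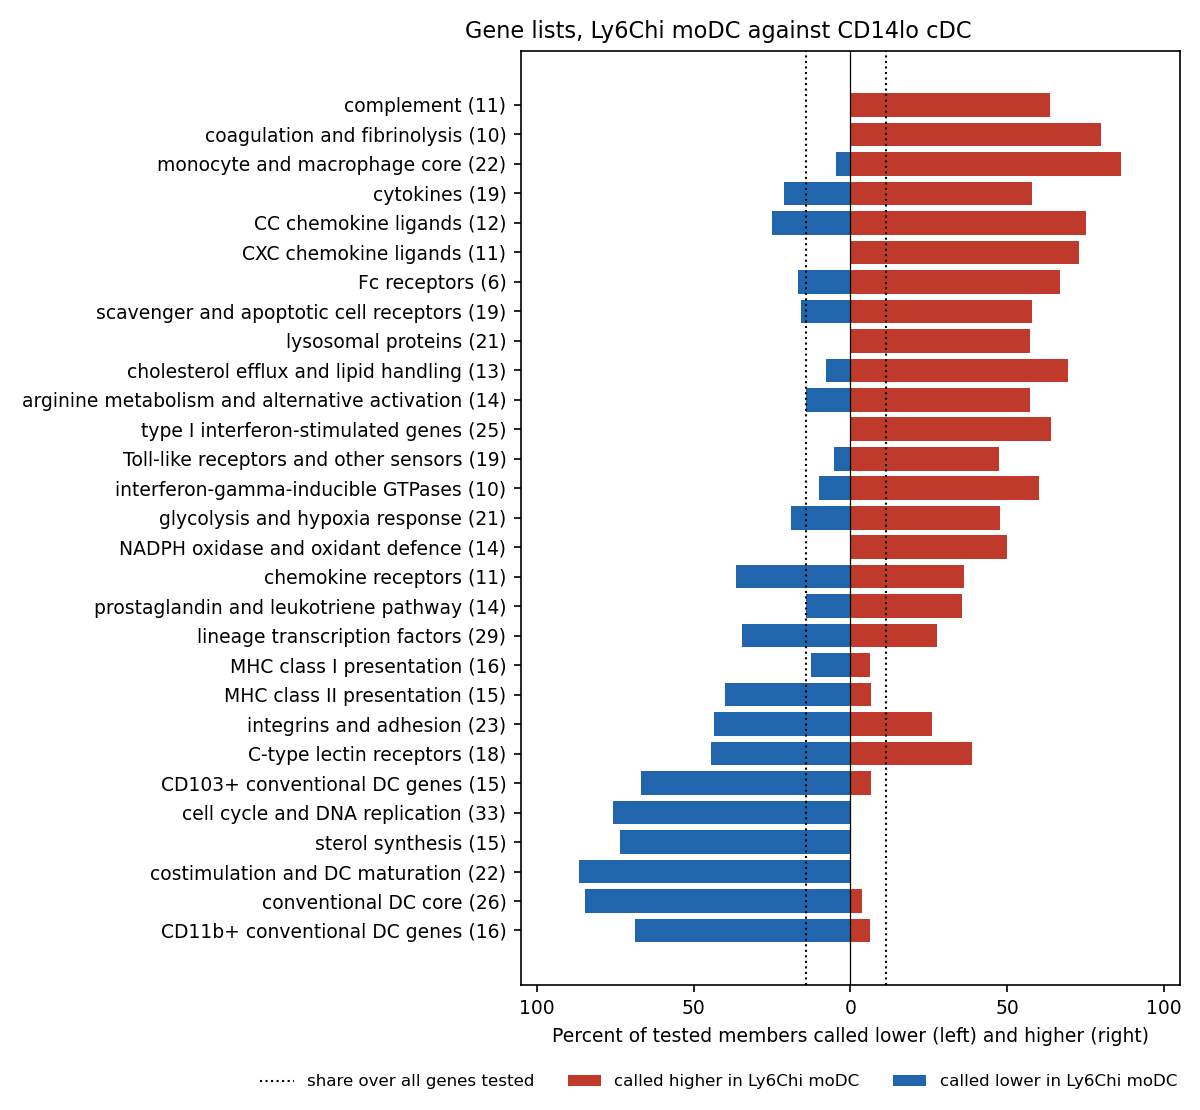
Percent of the tested members of each gene list called higher (red, right) and lower (blue, left) in Ly6Chi moDC against CD14lo cDC, with the number tested in parentheses and the lists in order of their median difference; dotted lines mark 11.2% higher and 14.0% lower over all genes. Monocyte, complement and coagulation lists stand at the top, and the conventional DC and costimulation lists at the bottom.

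Of the MHC class II genes, H2-Aa and H2-Ab1, which encode chains of the presenting molecule I-A, were not called: H2-Aa was 19534 ± 2039.5 in Ly6Chi moDC and 20472 ± 801 in CD14lo cDC (-0.07 ± 0.13), and H2-Ab1 16001 ± 2056 in Ly6Chi moDC against 17728 ± 1088 in CD14lo cDC (-0.15 ± 0.16). H2-Oa and H2-Ob, whose products form the H2-O dimer that restrains peptide loading by H2-DM, were lower. H2-Oa had 219, 220.4 and 211 in Ly6Chi moDC, against 3549.8, 3748 and 4175 in CD14lo cDC (-3.86 ± 0.22, adjusted p = 2.8e-10). H2-Ob had 384, 272 and 194 in Ly6Chi moDC against 3253, 4284 and 4242 in CD14lo cDC (-3.60 ± 0.18), and neither gene overlapped. In all, 6 of 15 were lower and 1 higher, with a median of -0.15. The others that were lower were H2-Eb2, for a presenting chain (-2.70), H2-DMb2 (-1.82), the protease gene Napsa (-1.51) and Ciita, the master activator of class II genes (-1.12). Lgmn, for the lysosomal protease legumain, was the member that was higher, at 5231 ± 730.3 in Ly6Chi moDC against 1350.3 ± 326 in CD14lo cDC. Of 16 class I genes, 1 was higher and 2 lower, with a median of -0.09, shares under the background. The immunoproteasome gene Psmb10 was higher by 0.38, and the peptide editor gene Tapbpl and the activator gene Nlrc5 fell by 0.56 and 0.35. Quantile normalization gave 6 lower class I genes in place of 2, and each of these 3 calls was lost under at least 1 other setting.

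Of 22 tested genes of costimulation and dendritic cell maturation, 19 were lower and the other 3 were not called, with a median of -1.48. Ccr7 had 1188, 442 and 1178 in Ly6Chi moDC, against 15327, 13155 and 14938 in CD14lo cDC (-3.997 ± 0.256, adjusted p = 1.5e-09). Fscn1, for the actin-bundling protein fascin of dendritic cell protrusions, had 1206, 412 and 1829 in Ly6Chi moDC against 12432, 12468 and 12519 in CD14lo cDC (-3.61 ± 0.30). Its other kept probe sets gave -2.64, -4.86 and -5.05. On the probe set shown, CD14lo arrays were nearly equal for Fscn1, while Ly6Chi arrays ran over a wide range below them. Cd200, for a ligand that restrains myeloid cells, had 137, 80.1 and 47.8 in Ly6Chi moDC, against 2288, 2074 and 1625 in CD14lo cDC (-3.92 ± 0.22). The costimulatory genes Cd80 and Cd86 were not called, at 2584 ± 176 and 2125 ± 321 in Ly6Chi moDC and 3111 ± 711 and 2978 ± 533 in CD14lo cDC.

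All 12 tested CC chemokine ligands were called, 9 higher and 3 lower, with a median of 1.30. The lower ones were the T cell attractants Ccl22, Ccl17 and Ccl5 (-1.23). Ccl22 had 1005, 359 and 645 in Ly6Chi moDC, against 15991, 10059 and 11790.3 in CD14lo cDC (-4.21 ± 0.24), and Ccl17, whose product shares the receptor CCR4 with that of Ccl22, had 3028, 2367 and 1599.8 in Ly6Chi moDC against 17703, 13125 and 13112 in CD14lo cDC (-2.66 ± 0.22). Ly6Chi moDC were thus the higher population for the CCR2 ligands named above and the lower one for the CCR4 ligands. CXC ligands had 8 of 11 higher and the others not called, with a median of 1.18. Pf4, platelet factor 4, had 1577, 2328 and 2258 in Ly6Chi moDC, against 302, 93.4 and 46.0 in CD14lo cDC (3.62 ± 0.41). Cxcl2, a neutrophil attractant, had 11970.1, 11656 and 10088 in Ly6Chi moDC against 2391, 1489 and 2107 in CD14lo cDC (2.49 ± 0.21), and Cxcl3 2453, 1374 and 968 in Ly6Chi moDC against 528, 109 and 64.0 in CD14lo cDC (2.81 ± 0.53), with CD14lo replicate 1 above the other CD14lo arrays. Cxcl14 was 589 ± 190.2 in Ly6Chi moDC against 137 ± 60.1 in CD14lo cDC.

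Chemokine receptors had 4 of 11 higher and 4 lower, with a median of 0.31. Ccr1, a receptor for inflammatory CC ligands, had 2186, 2278 and 2211 in Ly6Chi moDC, against 625, 637 and 543 in CD14lo cDC (1.81 ± 0.16), and Ccrl2, for a receptor-like protein that holds chemerin, 6651, 5998 and 6729.5 in Ly6Chi moDC against 1658, 1451 and 1496 in CD14lo cDC (2.04 ± 0.17). Cxcr5, the receptor for the follicle chemokine CXCL13, was very dim in Ly6Chi moDC, at 2.16, 1.94 and 2.01, against 178, 147 and 122 in CD14lo cDC (-1.93 ± 0.28).

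Of 19 cytokine genes, 11 were higher and 4 lower, with a median of 1.44. Lif, for leukaemia inhibitory factor, had 818, 393 and 400.0 in Ly6Chi moDC, against 53.0, 45.4 and 69.2 in CD14lo cDC (2.40 ± 0.29). Il1a had 1127, 523 and 856 in Ly6Chi moDC against 194, 108 and 83.1 in CD14lo cDC (2.30 ± 0.28), and Il10, which damps inflammation, had 245, 241 and 564 in Ly6Chi moDC against 28.6, 25.0 and 30.4 in CD14lo cDC (2.27 ± 0.32). Ly6Chi replicate 3 was above the other Ly6Chi arrays for Il10, and all 3 were above CD14lo cDC. Vegfa, an inducer of vessel growth, was 1626 ± 403 in Ly6Chi moDC against 389 ± 298 in CD14lo cDC (2.11 ± 0.39). Il12b, whose product is the subunit shared by interleukins 12 and 23, went the other way, with 95.7, 2.58 and 40.6 in Ly6Chi moDC, against 929, 354 and 657 in CD14lo cDC (-2.88 ± 0.34, adjusted p = 3.4e-06). Ltb, lymphotoxin beta, was 40.1 ± 6.51 in Ly6Chi moDC against 239 ± 24.0 in CD14lo cDC. Il1b was not called, at 14618 ± 962 in Ly6Chi moDC against 13579 ± 2790.3 in CD14lo cDC.

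Type I interferon-stimulated genes had 16 of 25 higher and the other 9 not called, with a median of 0.60. Leaving out single arrays gave 12 to 17. Cmpk2, a nucleotide kinase gene, had 915, 829 and 757 in Ly6Chi moDC, against 225, 274 and 371 in CD14lo cDC (1.40 ± 0.21, adjusted p = 5.3e-05). Ifi204, for a DNA sensor, had 2716, 3054 and 2343 in Ly6Chi moDC against 688, 1180.1 and 1409 in CD14lo cDC (1.32 ± 0.23), Oasl1, of the oligoadenylate synthetase-like family, 1853, 1742 and 1852 in Ly6Chi moDC against 864, 586 and 956 in CD14lo cDC (1.16 ± 0.18), and Irf7, the factor that amplifies interferon production, 4844, 5973 and 5512 in Ly6Chi moDC against 3285, 2160.3 and 3229 in CD14lo cDC (0.92 ± 0.16). None of these 4 overlapped. Mx1 and Mx2, antiviral GTPase genes, were not called, at 2153 ± 169.8 and 350.4 ± 70.0 in Ly6Chi moDC and 2397 ± 208 and 349 ± 89.9 in CD14lo cDC.

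Interferon-stimulated genes are known for a shared response element of their promoters. Its core was searched on both strands as GAAA, any 2 bases and GAAA, in the 250 bases before the start of each gene, in RefSeq promoters of GRCm38.p6. Of the 25 tested members 17 had a promoter entry. A match was in 5 of 12 members called higher and, with the members not called, in 7 of 17, against 3.46% of 27025 genes and 2.98% of their 32851 promoters of the same length. The 4 called members with a match and the largest differences are shown because they let the element be read, written 5′ to 3′ on the gene's strand with matches in capitals, overlapping ones joined; a match on the other strand reads TTTC, any 2 bases and TTTC. They are Rsad2, whose product viperin blocks virus replication (0.86), Bst2, tetherin, which holds virus particles at the cell surface (0.78), Oas1a, an oligoadenylate synthetase (0.64), and Ifit1, a binder of foreign RNA ends (0.60).
Rsad2, chr12:26456453-26456702, minus strand: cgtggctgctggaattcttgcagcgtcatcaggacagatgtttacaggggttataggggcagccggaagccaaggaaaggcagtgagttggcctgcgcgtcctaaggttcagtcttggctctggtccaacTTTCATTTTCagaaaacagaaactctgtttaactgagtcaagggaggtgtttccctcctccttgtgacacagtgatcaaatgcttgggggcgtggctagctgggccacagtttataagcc
Bst2, chr8:71537473-71537722, minus strand: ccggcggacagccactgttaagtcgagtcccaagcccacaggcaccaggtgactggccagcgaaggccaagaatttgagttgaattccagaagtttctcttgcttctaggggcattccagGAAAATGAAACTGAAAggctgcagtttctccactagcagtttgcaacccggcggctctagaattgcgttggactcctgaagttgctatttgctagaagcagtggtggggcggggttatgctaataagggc
Oas1a, chr5:120907526-120907775, minus strand: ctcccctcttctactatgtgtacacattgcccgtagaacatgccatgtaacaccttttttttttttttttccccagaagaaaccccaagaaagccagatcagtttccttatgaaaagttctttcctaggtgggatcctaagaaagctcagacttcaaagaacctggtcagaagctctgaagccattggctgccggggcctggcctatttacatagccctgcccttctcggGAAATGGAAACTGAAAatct
Ifit1, chr19:34640639-34640888, plus strand: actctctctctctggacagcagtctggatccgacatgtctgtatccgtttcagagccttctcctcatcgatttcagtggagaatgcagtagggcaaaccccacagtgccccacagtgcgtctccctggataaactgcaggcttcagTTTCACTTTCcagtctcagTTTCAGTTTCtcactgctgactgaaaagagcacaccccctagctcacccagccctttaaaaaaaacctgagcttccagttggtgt
Rsad2 holds 1 match and the other 3 hold 2 each. Rsad2 was 7659 ± 666 in Ly6Chi moDC and 4217 ± 480.4 in CD14lo cDC, and Ifit1 4026 ± 212 in Ly6Chi moDC against 2651 ± 347 in CD14lo cDC. Cmpk2, Oasl1 and Irf7, with larger differences, hold no match in the window, which says only that these letters are not there. Of other elements in the same windows, the AP-1 form TGANTCA was in 4 of 17 members and 7.82% of all genes. Forms of the NF-kappaB site (GGAA, any base, TCCCC, and GGGA, any base, TTCC) were in 0 of 17, with 0.359% and 1.63% of all genes, and so was the C/EBP form TTGC, any 2 bases and AA, with 10.8%.

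GTPases induced by interferon gamma, which attack vacuoles that hold microbes, had 6 of 10 higher and 1 lower, with a median of 0.57. Gbp6 had 797, 595 and 755 in Ly6Chi moDC, against 146, 117 and 144 in CD14lo cDC (2.04 ± 0.18), and Gbp7 had 2689, 3245 and 3182 in Ly6Chi moDC against 1227, 1298 and 1147 in CD14lo cDC (1.27 ± 0.19). Gbp8 was the lower one, at 168, 172 and 194 in Ly6Chi moDC, against 513, 553 and 453 in CD14lo cDC (-1.29 ± 0.16). These genes form a family of close copies, and cross-hybridization among them was not tested.

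Of 19 Toll-like receptor and sensor genes, 9 were higher and 1 lower, with a median of 0.57. Tlr2, for a receptor of bacterial lipoproteins, had 6673, 5560.3 and 7468 in Ly6Chi moDC, against 1774, 1833 and 2003 in CD14lo cDC (1.78 ± 0.16), and Tlr4, the lipopolysaccharide receptor, 2108, 1440.1 and 1741 in Ly6Chi moDC against 499.7, 525 and 684 in CD14lo cDC (1.54 ± 0.23). Ly96, the TLR4 partner MD-2, was 968 ± 179 in Ly6Chi moDC against 467 ± 112 in CD14lo cDC. Ticam1, an adaptor of TLR3 and TLR4, fell by 0.70, a call that leaving out any of 4 single arrays ended, CD14lo cDC replicate 1 among them (adjusted p = 0.0655). Fc receptors had 4 of 6 higher and 1 lower, with a median of 1.18. Fcgr4 had 2770.3, 3251 and 4168 in Ly6Chi moDC, against 947, 1149 and 1306 in CD14lo cDC, and Fcgr3 9522, 10269 and 9494 in Ly6Chi moDC against 4017, 3644 and 2921 in CD14lo cDC. Fcgrt, for the neonatal receptor that recycles IgG, was the lower one, at 751 ± 151 in Ly6Chi moDC against 1857 ± 493 in CD14lo cDC (-1.24 ± 0.20).

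C-type lectin receptors were split, with 7 of 18 higher and 8 lower, with a median of -0.48. Clec4d and Clec4e, which sense mycobacterial glycolipids, led the rise: Clec4e had 7364, 4326 and 7427 in Ly6Chi moDC, against 605, 334 and 412 in CD14lo cDC (3.68 ± 0.39), and Clec4d 7385, 7130.1 and 7580.0 in Ly6Chi moDC against 727, 192 and 635 in CD14lo cDC (3.88 ± 0.33). The fall was led by Cd209c and Cd209a, followed by Mgl2, a near relative of Clec10a, with 571, 481 and 218 in Ly6Chi moDC, against 4987, 2262 and 2007 in CD14lo cDC (-2.70 ± 0.31). Cross-hybridization within the Cd209 genes and between Mgl2 and Clec10a was not tested. Against CD14hi moDC, Mgl2 was lower in Ly6Chi moDC (-3.47 ± 0.31, adjusted p = 1.7e-07), while Clec10a was not called (0.26 ± 0.28).
Scavenger and apoptotic cell receptors had 11 of 19 higher and 3 lower, with a median of 0.70. Trem2, a lipid-sensing receptor gene, had 984, 1462 and 1014 in Ly6Chi moDC, against 66.9, 40.6 and 101 in CD14lo cDC (3.34 ± 0.28), and Olr1, a receptor of oxidized lipoprotein, 3112, 2089 and 3287 in Ly6Chi moDC against 354, 104 and 365 in CD14lo cDC (3.26 ± 0.35). Cd163, the haemoglobin scavenger receptor, was lower at 34.0, 63.6 and 80.1 in Ly6Chi moDC against 315, 508 and 579.9 in CD14lo cDC (-2.23 ± 0.26), as was Timd4, a phosphatidylserine receptor gene (-2.06 ± 0.24).

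Complement genes had 7 of 11 higher and 4 not called, with a median of 1.70. Cfb had 5913, 4711 and 5161 in Ly6Chi moDC, against 550.2, 308 and 277 in CD14lo cDC (3.68 ± 0.39). C3ar1, for the receptor of the fragment C3a, had 6627, 7618 and 6733 in Ly6Chi moDC against 804, 315 and 691 in CD14lo cDC (3.52 ± 0.26). C1qa and C1qc, which encode chains of the starter of the classical pathway, were also higher: C1qa had 6786, 7833 and 5246 in Ly6Chi moDC against 924, 376 and 829 in CD14lo cDC, and C1qc had 9773, 11505 and 10146 in Ly6Chi moDC against 1771, 919 and 1225 in CD14lo cDC. No CD14lo array reached the lowest Ly6Chi array for these genes.
Coagulation and fibrinolysis genes had 8 of 10 higher and 2 not called, with a median of 1.57. F10, for coagulation factor X, had 6404, 3379.8 and 3407 in Ly6Chi moDC, against 689, 287 and 317 in CD14lo cDC (3.24 ± 0.35), with Ly6Chi replicate 1 the highest. F13a1, for the fibrin cross-linking factor XIII, had 1897, 2175 and 2523 in Ly6Chi moDC against 225, 375 and 359 in CD14lo cDC (2.62 ± 0.22), and Plau, for the plasminogen activator urokinase, 6804, 6188 and 7183 in Ly6Chi moDC against 1498, 2084 and 1589.8 in CD14lo cDC (1.95 ± 0.14).

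Around Arg1, the list of arginine metabolism and alternative activation had 8 of 14 higher and 2 lower, with a median of 0.61. Slc7a2, an arginine transporter gene, had 2339, 1095 and 624 in Ly6Chi moDC, against 249.7, 64.4 and 44.3 in CD14lo cDC (3.05 ± 0.42). Fn1, fibronectin, had 15694, 16407 and 13909 in Ly6Chi moDC against 2609.8, 1717 and 2106 in CD14lo cDC (2.83 ± 0.43). Chil3, a chitinase-like gene also of alveolar macrophages, had 7190.0, 5519 and 7347 in Ly6Chi moDC, against 3941, 589.7 and 397 in CD14lo cDC, and the array that stood apart above is the high one. Its difference was 2.68 ± 0.64 (adjusted p = 0.00405) with all arrays and 3.64 without CD14lo cDC replicate 1 (adjusted p = 3.8e-05). Retnla, which like Chil3 and Arg1 is a marker of alternative activation in mice, went the other way, with 489, 369.9 and 272 in Ly6Chi moDC against 2506, 1478 and 578 in CD14lo cDC (-1.69 ± 0.35), and -1.23 without that replicate (adjusted p = 0.00859). Pdcd1lg2, the second ligand of PD-1, was also lower (-1.07 ± 0.24).

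Genes listed for cholesterol efflux and lipid handling were mostly higher, while those of sterol synthesis were mostly lower. Of 13 efflux and lipid handling genes, 9 were higher and 1 lower, with a median of 0.64. Abca1, a cholesterol exporter gene driven by LXR, had 2002, 1854 and 2042 in Ly6Chi moDC, against 175, 206 and 192 in CD14lo cDC (3.06 ± 0.23), and Apoe, which carries the exported lipid, 3939.8, 6179 and 5406 in Ly6Chi moDC against 417, 523 and 381 in CD14lo cDC (3.40 ± 0.36). Fabp4, a fatty acid binding protein gene and an alveolar macrophage marker, was the lower one, at 325, 163 and 197 in Ly6Chi moDC against 2696, 1959.8 and 1538 in CD14lo cDC, and remained so without CD14lo cDC replicate 1 (-2.72, adjusted p = 3.2e-07). Of 15 sterol synthesis genes, 11 were lower and 4 not called, with a median of -1.15. Idi1, an isomerase of the mevalonate pathway, had 1606, 1493 and 1243 in Ly6Chi moDC, against 5553, 5338 and 5164 in CD14lo cDC (-1.86 ± 0.13, adjusted p = 5.8e-09). Lss, lanosterol synthase, had 272, 411 and 279 in Ly6Chi moDC against 1096, 1256 and 982 in CD14lo cDC (-1.66 ± 0.20), and Fdps and Sc5d fell by 1.56 and 1.52.
Lysosomal proteins had 12 of 21 higher and 9 not called, with a median of 0.65. The protease genes Ctsl and Ctsd were 2592 ± 281 and 10701 ± 1004 in Ly6Chi moDC and 365 ± 128 and 2639 ± 1059 in CD14lo cDC, and Gpnmb, a lysosomal membrane glycoprotein gene, was 1462 ± 650.2 in Ly6Chi moDC against 168 ± 141 in CD14lo cDC.

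Cell cycle genes were lower as a group, 25 of 33 with 8 not called, and a median of -0.94. Uhrf1, which guides maintenance of DNA methylation at replication, had 344, 325 and 299 in Ly6Chi moDC, against 1731, 1649 and 1229 in CD14lo cDC (-2.08 ± 0.21, adjusted p = 5.5e-07). Rrm2, a subunit of ribonucleotide reductase, had 231, 215 and 262 in Ly6Chi moDC against 749, 1109 and 655 in CD14lo cDC (-1.60 ± 0.24), and the spindle gene Nusap1 28.3, 18.0 and 4.84 in Ly6Chi moDC against 147, 337 and 141 in CD14lo cDC (-1.88 ± 0.26). The 3 sets of arrays did not overlap. The replication clamp gene Pcna was not called, at 4698 ± 145 in Ly6Chi moDC and 5033 ± 585 in CD14lo cDC.
Glycolysis and hypoxia genes had 10 of 21 higher and 4 lower, with a median of 0.37, but 6 higher without CD14lo cDC replicate 2, and likewise 6 without Ly6Chi moDC replicate 1. Hk3, a hexokinase gene, had 973, 1139 and 984 in Ly6Chi moDC, against 312, 346 and 373 in CD14lo cDC (1.46 ± 0.16). Adm, for the vasodilator adrenomedullin, had 1874, 1072 and 1608 in Ly6Chi moDC against 9316, 6544 and 8247 in CD14lo cDC (-2.39 ± 0.29), and Pfkfb3, which makes an activator of glycolysis, 1020.0, 897 and 1172 in Ly6Chi moDC against 2813, 2611 and 2955 in CD14lo cDC (-1.40 ± 0.17).

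NADPH oxidase and oxidant defence genes had 7 of 14 higher and 7 not called, with a median of 0.34. Hmox1, haem oxygenase 1, had 4181, 3548 and 4017 in Ly6Chi moDC, against 835, 393 and 533 in CD14lo cDC (2.69 ± 0.23), while the oxidase subunit gene Ncf4 was 5616 ± 283 in Ly6Chi moDC against 2879.8 ± 145 in CD14lo cDC. In the prostaglandin and leukotriene pathway 5 of 14 were higher and 2 lower, with a median of 0.01. Pla2g7 and Pla2g4a, phospholipase genes, rose by 2.59 and 1.69 and Ptges, prostaglandin E synthase, by 1.92. Lta4h, which makes leukotriene B4, fell by 1.07.
Integrin and adhesion genes had 6 of 23 higher and 10 lower, with a median of -0.44. Itgb5 had 5319.8, 5825 and 7162 in Ly6Chi moDC, against 630.3, 742 and 749 in CD14lo cDC (3.02 ± 0.17), and Itga6, for a laminin receptor subunit, 1077, 1292 and 1726 in Ly6Chi moDC against 204, 217 and 211 in CD14lo cDC. Cldn1, for a tight junction protein that also links dendritic cells to epithelium, had 39.8, 31.1 and 13.5 in Ly6Chi moDC, against 1107, 571 and 899 in CD14lo cDC (-3.51 ± 0.24), and Epcam, counted above among epithelium markers too, 55.5, 29.1 and 22.9 in Ly6Chi moDC against 724, 431 and 639 in CD14lo cDC (-2.91 ± 0.24).

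The same genes were read in CD14hi moDC, the other monocyte-derived population, since a difference from CD14lo cDC can be common to both. Both comparisons use the same Ly6Chi arrays, so they are not independent. Against CD14hi moDC, 6.82% of all genes were higher in Ly6Chi moDC and 11.4% lower. Arg1 was 3108 ± 308 in Ly6Chi moDC, 169 ± 98.4 in CD14hi moDC and 48.9 ± 24.8 in CD103+ cDC, and exceeded CD14hi moDC by 3.93 ± 0.29 (adjusted p = 1.5e-08). Thbs1 (3.37 ± 0.45), Vcan (2.52 ± 0.27), Cfb (2.18 ± 0.39) and Vegfa (2.24 ± 0.39) were also above CD14hi moDC. Ccl2, Ccl7 and Ccl12 were not called against CD14hi moDC, where they were 12804 ± 884, 6606 ± 1758 and 10879 ± 1430.5. Pf4 was lower than in CD14hi moDC (-2.05 ± 0.41, adjusted p = 0.00156), although higher than in CD14lo cDC.

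Among the falls, Ccr7 was 936 ± 428 in Ly6Chi moDC, 14561 ± 3286 in CD14hi moDC and 27133 ± 4077 in CD103+ cDC, and the difference from CD14hi moDC was -3.99 ± 0.26 (adjusted p = 2.4e-09). Aldh1a2 (-4.82 ± 0.15 against CD14hi moDC), Ccl22 (-4.68 ± 0.24), Fscn1 (-3.72 ± 0.30), Serpinb6b (-4.71 ± 0.22) and Adam23 (-4.52 ± 0.19) were also lower than in CD14hi moDC, and no Ly6Chi array reached any array of the other 3 populations for them. Each of the other 3 populations averaged at least 1283 for Adam23, against 12.0 ± 3.58 in Ly6Chi moDC. Clec10a and Ffar2 were not called against CD14hi moDC (0.26 ± 0.28 and 0.63 ± 0.23), and both were highest in CD14lo cDC. Cd7 was higher in Ly6Chi moDC than in CD14hi moDC (1.48 ± 0.27, adjusted p = 0.00064), with 19.6 ± 14.9 in CD14hi moDC. Flt3 averaged 113 ± 34.3 in Ly6Chi moDC, 2513 ± 246 in CD14lo cDC and 753 ± 88.4 in CD14hi moDC, while CD103+ cDC had 6749 ± 891. Ordered by level, Ly6Chi moDC were lowest and CD103+ cDC highest for Flt3, and no 2 populations overlapped.

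**Figure D5:**
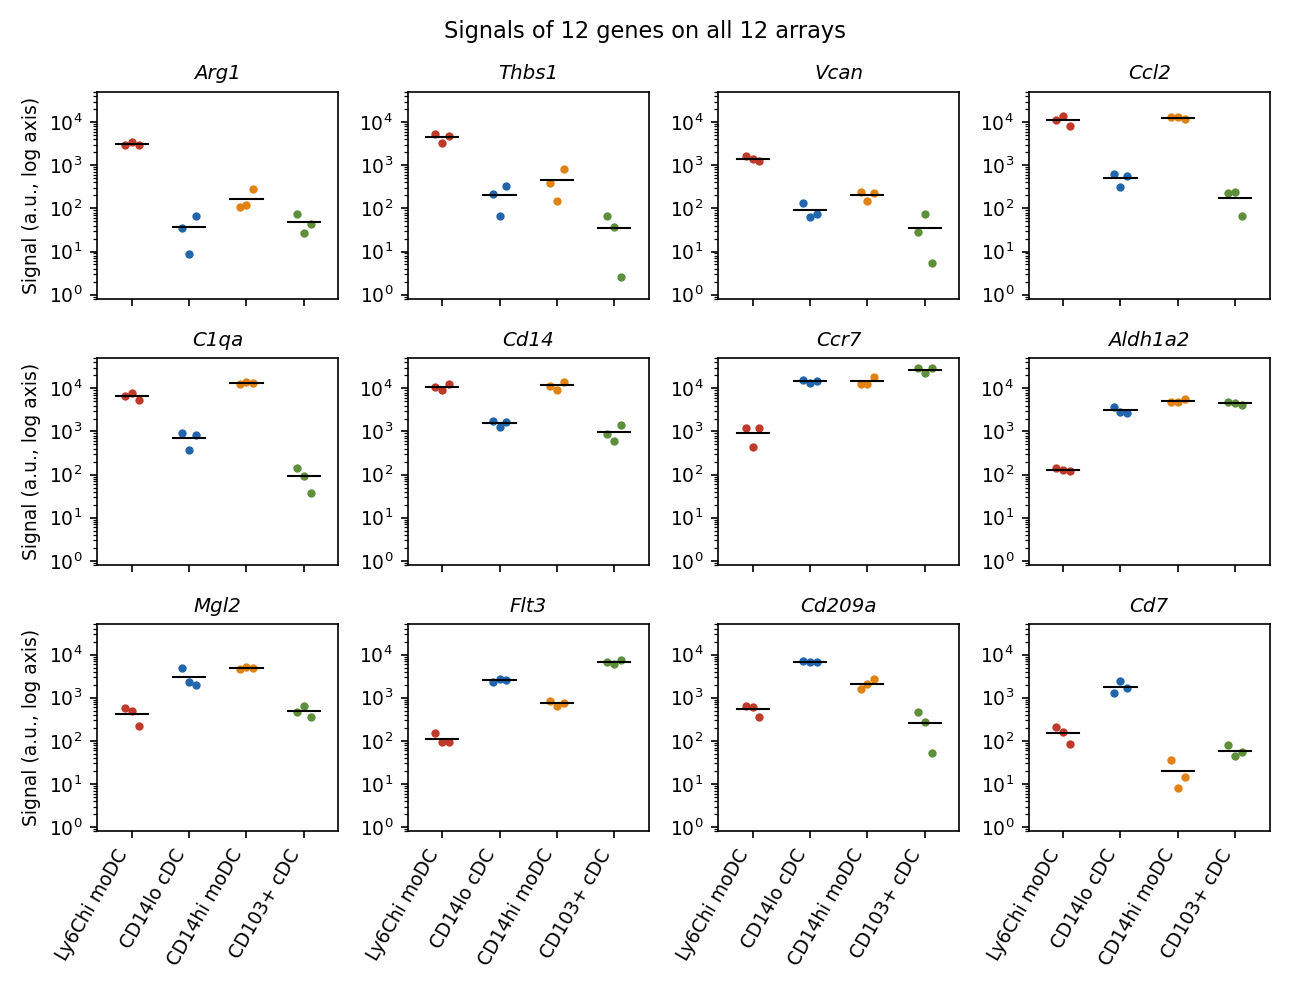
Signals of 12 genes on every array of the 4 populations, in arbitrary units on a log axis, with Ly6Chi moDC left of CD14lo cDC; points are arrays (values under 1 drawn at 1) and bars the mean of 3. Arg1, Thbs1 and Vcan are highest in Ly6Chi moDC, Ccl2 and Cd14 overlap between Ly6Chi moDC and CD14hi moDC, and for Ccr7 and Aldh1a2 every Ly6Chi array lies below all other arrays.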

How the data were processed

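The deposited intensities are one-colour microarray signals of Affymetrix 3′ probe sets, made by the authors with MAS5, per the submitters' processing notes. Each array has the same trimmed mean, 500.003 with 2% trimmed at each end, so the authors' scaling was kept and its target set the pseudocount at 10% of it. Depth does not apply to arrays, and the number of arrays, 3 per population, limits the precision.

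Of 45101 probe sets, 64 were controls, 34945 carried 1 gene symbol in the platform annotation, 932 several and 9160 none; only those with 1 symbol were named or tested. A probe set was kept when its signal exceeded the array median on at least 3 of 12 arrays (21138 kept), and the brightest kept probe set stood for each of 10929 genes. Detection calls were not used here, so dim signals carry no mark of background. Differences were fitted with limma 3.58.1 in R 4.3.3 on log2 values of all 12 arrays, 1 mean per population, with an intensity trend, two-sided, and Benjamini-Hochberg adjustment over all genes. A simulation of 10929 genes with 200 changed recovered 73% of 2-fold and 98% of 4-fold changes, with 9 false calls among 180. It gave all populations the same means apart from those changes, and far fewer genes differed than the 25.2% called here. These rates therefore need not hold for the data.

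Samples were grouped by their sort labels. The genes, gene lists and tests were chosen with earlier results of these data known. Named genes were the sort and identity genes, the 15 largest changes each way whose arrays did not overlap, up to 4 called members of each list, up to 2 against its majority and up to 2 not called, and markers of other cell types. Csf1r, Ccl5, Ciita, H2-DMb2, Napsa, Rsad2, Bst2, Oas1a and Ifit1 lie outside this rule and were chosen after their values were seen. Of the 142 genes the rule named, 65 had several kept probe sets, and none had probe sets called in opposite directions, but for 38 the differences of the probe sets lay over 1.5-fold apart, so a gene's size and rank depend on the probe set. One promoter element that was searched is not reported here. Alternatives were another scaling, pseudocount, filter, probe set rule, set of arrays, variance model, size threshold, a replicate block and leaving out each array.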

Additional observations from a re-analysis of the deposited data

How the results depend on the processing

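Scaling, pseudocount, filter, averaging of probe sets, use of only the 6 arrays and omission of the intensity trend gave 977 to 1350 genes higher and 1093 to 1725 lower. Leaving out single arrays gave 978 to 1158 higher and 1247 to 1323 lower. Counts moved more where the rule itself differs: testing against a 1.5-fold interval gave 357 higher and 492 lower, asking also for a 2-fold difference 496 and 699, and testing every kept probe set 2006 and 2652. The labels share replicate numbers between the populations but do not say that a number marks a shared pool. The main fit therefore did not pair the samples. Deviations of same-numbered arrays of the pair correlated at 0.134, -0.068 and -0.047. Those of Ly6Chi moDC correlated at 0.052, 0.236 and 0.216 with CD103+ cDC, and at 0.125, 0.138 and 0.024 with CD14hi moDC. Differently numbered arrays of the pair reached 0.235, so these values do not settle the pairing. With the replicate as a block 1263 genes were higher and 1563 lower. Of 142 named genes, 127 were called under all settings that tested them, and no difference changed sign. A few genes were not tested under every setting. The 1.5-fold interval alone ended the calls of Anpep, Ccne1, Ccr2, Cd300a, Irf7, Itgam, Lta4h, Ly96, Pdcd1lg2, Ptger4 and Srxn1, while Nlrc5, Psmb10, Tapbpl and Ticam1 also lost theirs elsewhere. Lowered cell cycle genes numbered 15 with the filter at the 75th percentile, which tests fewer genes. Leaving out each CD14hi moDC array, an alternative chosen after seeing the data, and the other settings ended at least once the calls against CD14hi moDC of Acod1, Anpep, C1qa, Ccrl2, Clec4d, Cmpk2, Gbp3, Gbp6, Inhba, Irf7, Itga6, Itgam, Msr1, Olfml3, Pla2g4a, Psmb10 and Ptges. With 3 arrays per population and pooled mice, small differences of dim genes are out of reach.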
